A study of Mus musculus with 70 samples.

Results

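Circulating Ly6C-high monocytes of stress-susceptible (SUS) mice were compared directly with those of stress-resilient (RES) mice. The libraries were chosen by their labels, namely the cell type Ly6high and the condition SUS or RES, which gave 6 SUS and 6 RES libraries, 12 of the 70 libraries in the series. In the study, mice underwent chronic social defeat stress (CSDS) for 10 days and were then given a social interaction test. Leukocytes were sorted from trunk blood by flow cytometry with antibodies to CD11b, Ly6C, Ly6G, B220 and CD90.2, and total RNA was sequenced from B cells, T cells and both monocyte types, high and low in Ly6C. The 6 unstressed control (CON) Ly6C-high libraries shared the estimate of the spread and are given as the background level. The labels name no mouse, so the p-values measure the spread between these libraries, which may in part be technical.

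The study's methods name purchased C57BL/6J mice, a common inbred strain, for standard CSDS experiments. The labels name no allele, and neither they nor the methods give the sex of the mice behind these libraries. SUS and RES mice received the same CSDS, daily physical encounters with an aggressive CD-1 mouse followed by sensory contact, and were separated afterwards by behaviour. SUS mice spent less time near an unfamiliar CD-1 mouse than near the empty enclosure, and RES mice spent at least as much. CON mice were not defeated. The comparison therefore holds stress exposure constant and sets apart mice by their response to it, and the groups were not assigned at random. The labels give brain as the source of every library, whereas the series design and the methods state blood, and blood is used here.

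Ly6C-high monocytes are short-lived inflammatory cells that leave the bone marrow through the chemokine receptor Ccr2, enter inflamed tissue and convert in blood to Ly6C-low patrolling monocytes. They also contain states that resemble neutrophils, with granule and acute-phase genes, and states that resemble dendritic cells, with Cd209a and class II major histocompatibility complex (MHC) genes. Class II molecules are alpha and beta chain pairs that present peptides from endosomes to CD4 T cells, and the invariant chain, encoded by Cd74, guides them there and blocks their groove until peptide is loaded.

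Expression is given as CPM, the count of a gene scaled to a common library size after normalization by the trimmed mean of M values (TMM). Ly6c2, which encodes the Ly6C antigen, was present in all 12 libraries, at 231 to 883 CPM in SUS and 252 to 523 CPM in RES. Ccr2 lay between 798 and 2980 CPM in SUS and between 1260 and 2730 CPM in RES. The groups overlapped for both markers, with a log2 fold change (SUS minus RES) of 0.38 ± 0.23 (SE) for Ly6c2 and 0.19 ± 0.24 (SE) for Ccr2. The total count per library ran from 38936596 to 53028119 in SUS and from 19769835 to 67038231 in RES. One SUS library, replicate 5, stood apart from the other 17 Ly6C-high libraries on the first axis of a multidimensional scaling of the expression values, at -3.86 against -1.85 to 1.66. It also held the highest Hba-a1 (hemoglobin alpha) level, 4080 CPM, against 454 to 972 CPM in the other SUS libraries and 459 to 1790 CPM in RES. CON replicate 4 stood apart on the second axis, at 4.11 against -0.57 to 0.63. Many lists are given with and without SUS replicate 5, since leaving it out moved their counts. This was not done for every list or count, so a list given once is not thereby shown to be stable.

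Of 16955 genes tested with edgeR's quasi-likelihood test, 1 gene, Cd74, passed a Benjamini-Hochberg adjusted p of 0.05, which is 0.0059% of the genes, and it fell in SUS. No gene passed both this threshold and an absolute log2 fold change above 1, the pair of thresholds used in the study. With edgeR, 620 genes (3.66%) had an unadjusted p under 0.05, of which 316 (1.86%) were higher and 304 (1.79%) lower in SUS. The 2 groups of libraries did not overlap at all for 26 genes (0.153%), 14 of them higher (0.0826%) and 12 lower (0.0708%) in SUS. DESeq2 on the same 18 libraries called 13 of 16945 genes (0.0767%), 8 higher (0.0472%) and 5 lower (0.0295%), and both thresholds were passed by 11 (0.0649%), the 8 higher genes (0.0472%) and 3 of the lower ones (0.0177%). Cd74, H2-Aa, H2-Ab1, Slamf7 and Peg13 were the 5 lower genes that DESeq2 called. The median log2 fold change over all genes was 0.01, with 51.9% of genes above 0 and 48.1% below 0.

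**Figure D1:**
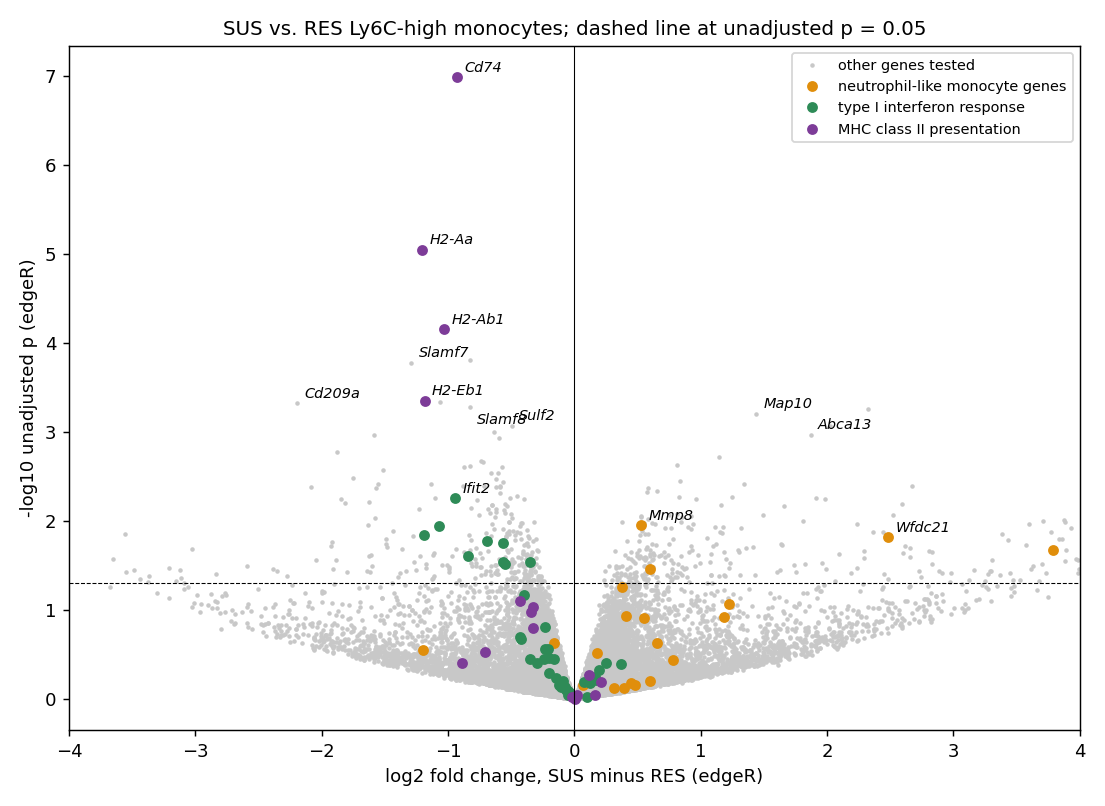
Log2 fold change (SUS minus RES, x axis) against -log10 of the unadjusted edgeR p (y axis) for each gene tested in Ly6C-high monocytes, with members of 3 lists in colour. Cd74 and the class II chain genes H2-Aa, H2-Ab1 and H2-Eb1 lie at the upper left, most interferon genes lie left of 0 and most neutrophil-like genes right of 0; the x axis ends at 4 and leaves out 76 genes beyond it.

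The MHC class II list had the lowest median of the 30 pathway lists, and its 4 lowest p-values belonged to the invariant chain and 3 peptide-binding chains. Cd74 (ENSMUSG00000024610) lies on chromosome 18 at 60803848-60812652, plus strand, of GRCm38, the assembly also called mm10. Its level was 215, 253, 232, 231, 249 and 220 CPM in SUS and 446, 381, 489, 579, 398 and 372 CPM in RES. Every SUS library was below every RES library, and the 6 SUS values lay close together. The CON libraries, at 371 to 548 CPM, were also above every SUS library. The SUS mean was 233 ± 15.2 CPM (SD, n = 6) against 444 ± 79.3 CPM in RES (SD, n = 6). The edgeR log2 fold change was -0.93 ± 0.12 (SE), 1.9-fold lower in SUS, with an adjusted p of 0.00175. Against CON, edgeR gave -1 for SUS, with an adjusted p of 0.000166, and -0.07 for RES, with an adjusted p of 0.799. It stayed between -0.97 and -0.84 over 23 alternatives and kept an adjusted p under 0.05 in 22 of them. The exception was edgeR's glmTreat test, which asks whether the change exceeds 1 on the log2 scale and gave an adjusted p of 1.

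H2-Aa and H2-Ab1 encode the alpha and beta chains of the class II molecule I-A. H2-Aa (ENSMUSG00000036594, chromosome 17 at 34282744-34287823, minus strand) was at 37.8, 55.3, 39.8, 36.1, 23.4 and 24.8 CPM in SUS and 99.6, 76.0, 95.6, 105, 74.5 and 50.4 CPM in RES. SUS replicate 2 lay above RES replicate 6, and the other 5 SUS libraries were below all RES libraries. Its log2 fold change was -1.21 ± 0.21 (SE), with an adjusted p of 0.0756 in edgeR and 0.000643 in DESeq2. H2-Ab1 (ENSMUSG00000073421, chromosome 17 at 34257689-34269419, plus strand) was at 83.6, 89.9, 61.3, 65.2, 64.3 and 34.8 CPM in SUS and 166, 137, 114, 194, 106 and 99.3 CPM in RES. The 2 groups did not overlap for H2-Ab1. The log2 fold change was -1.03 ± 0.21 (SE), with an adjusted p of 0.396 in edgeR and 0.00699 in DESeq2.

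H2-Eb1, the beta chain of the I-E molecule, whose alpha chain gene is not expressed in C57BL/6 mice, was at 21.6, 22.0, 16.8, 19.2, 10.7 and 8.34 CPM in SUS. In RES it was at 57.6, 36.9, 38.9, 48.2, 27.1 and 15.8 CPM. The lowest RES library lay within the SUS range, and the other 5 were above all SUS libraries. The log2 fold change was -1.18 ± 0.29 (SE), with an adjusted p of 0.71 in edgeR and 0.0752 in DESeq2. In the edgeR fit given here none of the 3 chain genes passed the threshold, and H2-Aa passed it in 5 of its 23 alternatives, among them edgeR with no low-count filter, H2-Ab1 in 2 and H2-Eb1 in 0, DESeq2 fits included. In CON the means were 75.2 CPM for H2-Aa, 119 CPM for H2-Ab1 and 34.2 CPM for H2-Eb1. The means in RES were 83.5, 136 and 37.4 CPM, and those in SUS 36.2, 66.5 and 16.5 CPM, in the same order of genes.

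**Figure D2:**
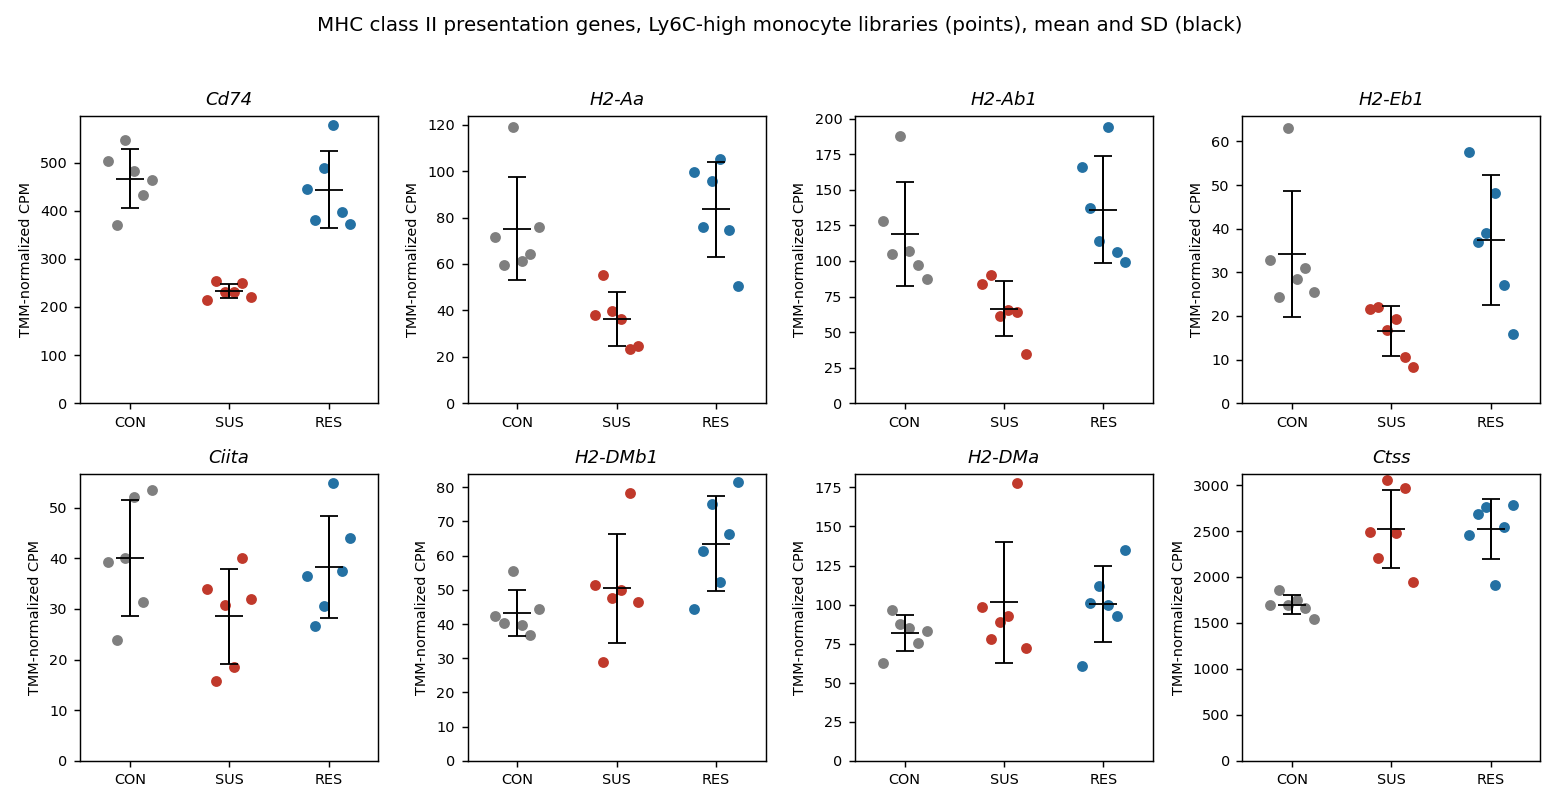
CPM (y axis) of 8 MHC class II presentation genes in each CON, SUS and RES Ly6C-high monocyte library, 6 per group, with the mean and SD in black. The SUS points of Cd74 and H2-Ab1 lie below all RES points, H2-Aa and H2-Eb1 overlap in few libraries, and Ctss and H2-DMa overlap throughout.

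Class II genes carry a shared promoter module, in which an X box that binds the RFX complex stands upstream of a Y box that binds NF-Y. The 250 bases upstream of the H2-Aa start (GRCm38.p6, chr17:34287824-34288073, minus strand) and of the H2-Eb1 start (chr17:34305617-34305866, plus strand) are printed from RefSeq. Both genes are among the 4 of this list with the lowest p. The upstream bases of Cd74 and H2-Ab1, also among these 4, are not shown. Capitals mark GCAAC, a core of the X box, and CCAAT, the core of the Y box, each searched on both strands, with ATTGG being a Y box core on the other strand.
H2-Aa: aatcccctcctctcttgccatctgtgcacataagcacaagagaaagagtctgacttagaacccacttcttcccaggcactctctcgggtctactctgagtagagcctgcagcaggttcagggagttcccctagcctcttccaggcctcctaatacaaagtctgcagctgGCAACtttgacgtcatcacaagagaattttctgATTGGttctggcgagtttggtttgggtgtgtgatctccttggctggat
H2-Eb1: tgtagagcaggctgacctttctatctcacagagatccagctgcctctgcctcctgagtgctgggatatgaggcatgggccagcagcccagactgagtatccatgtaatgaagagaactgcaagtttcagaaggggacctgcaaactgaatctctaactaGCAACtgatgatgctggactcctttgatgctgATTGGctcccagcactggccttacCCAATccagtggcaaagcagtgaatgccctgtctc
Each word alone was frequent, GCAAC in 33% and CCAAT in 37.5% of the 27025 genes with a promoter in the table. GCAAC followed on the gene's strand by ATTGG, 10 to 40 bases apart, was found in 194 genes, 0.718% of them. It was found in 5 of the 13 genes of the MHC class II list that matched the table, H2-Aa, H2-Eb1, H2-Eb2, H2-Oa and H2-Ob. The spacing was chosen after the H2-Aa and H2-Eb1 sequences were seen, and a match is not a measured binding site.

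The other members of the class II list overlapped between SUS and RES. Of the 17 members tested, 4 had an unadjusted edgeR p under 0.05 and all 4 were lower in SUS, 11 had a log2 fold change below 0, and the median was -0.33, where 1.79% of all genes were lower at that p and 48.1% were below 0. Ciita, the transactivator that switches on class II genes, was at 15.8 to 40.1 CPM in SUS and 26.6 to 54.8 CPM in RES, a log2 fold change of -0.43 ± 0.23 (SE). Rfx5, a subunit of the RFX complex, had a log2 fold change of -0.34. H2-DMa and H2-DMb1 encode the 2 chains of the molecule that exchanges peptides. Their log2 fold changes were 0.01 ± 0.2 (SE) and -0.33 ± 0.19 (SE). Ctss, the protease that trims the invariant chain, was at 1950 to 3050 CPM in SUS and 1910 to 2780 CPM in RES, with a log2 fold change of 0.00 ± 0.12 (SE). Without SUS replicate 5, 6 of the 17 members had an unadjusted edgeR p under 0.05, all lower, 15 were below 0 and the median was -0.44, where 1.92% of all genes were lower at that p. Bulk RNA cannot tell fewer cells in a class II-rich state from less class II RNA per cell.

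Class II genes are strongly expressed in B cells and dendritic cells, so the RNA of both was measured beside them. Summed over 13 B cell markers, the SUS libraries held 86.8 to 179 CPM (median 138) and the RES libraries 162 to 198 CPM (median 173). Most of it was Ighm, the heavy chain of immunoglobulin M, at 72.2 to 170 CPM in SUS and 152 to 190 CPM in RES (log2 fold change -0.42 ± 0.15, SE). The marker Cd79a was at 0.152 to 2.21 CPM in SUS and 0.533 to 2.5 CPM in RES. Another marker of the list, Cd79b, was higher, at 3.22 to 7.49 CPM in SUS and 4.25 to 11.7 CPM in RES. The shares that follow rest on Cd79a alone, and none was reckoned from Cd79b or Ighm. In the CON B cell libraries Cd74 was 6.33 times as high as Cd79a. At that ratio, the Cd79a level of each Ly6C-high library would bring 0.415% to 5.52% of its Cd74 in SUS and 0.847% to 3.01% in RES. The same reckoning gave at most 6.88% of H2-Aa in SUS and 4.21% in RES, at most 7.12% of H2-Ab1 in SUS and 5.04% in RES, and for H2-Eb1 1.28% to 17% in SUS (median 7.48%) and 2.37% to 11.2% in RES (median 5.98%). With the mean B cell marker level as a covariate, the Cd74 log2 fold change was -0.9 and its edgeR adjusted p 0.026. The summed level of 11 dendritic cell markers was 73.6 to 121 CPM in SUS (median 104) and 111 to 183 CPM in RES (median 141). Its most abundant members were Flt3, at a log2 fold change of -0.42 ± 0.22 (SE), and Clec10a, at -0.03 ± 0.23 (SE). Of 8 dendritic cell markers tested, 7 were below 0, with a median of -0.4. Of 8 B cell markers tested, 6 were below 0, with a median of -0.59. Each list had 1 member lower at an unadjusted edgeR p under 0.05. Over all genes, 48.1% were below 0 and 1.79% lower at that p. The part of dendritic cell RNA in the class II result was not tested.

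In Ly6C-low monocytes of the same groups, Cd74 averaged 923 ± 245 CPM in SUS and 1290 ± 359 CPM in RES (SD, n = 6 each). The log2 fold change there was -0.48 ± 0.18 (SE), against -0.93 ± 0.12 (SE) in Ly6C-high monocytes. For H2-Aa, H2-Ab1 and H2-Eb1 the Ly6C-low values were -0.55 ± 0.28, -0.7 ± 0.26 and -0.72 ± 0.34 (SE). No gene differed between SUS and RES Ly6C-low monocytes at an edgeR adjusted p of 0.05, and 604 of 21178 genes (2.85%) had an unadjusted p under 0.05, 1.21% higher and 1.64% lower. The difference between the 2 cell types was tested as an interaction over the 34 monocyte libraries. For Cd74 it was -0.42 ± 0.25 (SE), with an edgeR adjusted p of 0.922, so a larger difference in Ly6C-high monocytes was not shown. No gene passed the interaction test in edgeR, 1310 of 21178 (6.19%) had an unadjusted p under 0.05, 4.08% with a higher and 2.11% with a lower log2 fold change in Ly6C-high monocytes, and DESeq2 called 21.

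**Figure D3:**
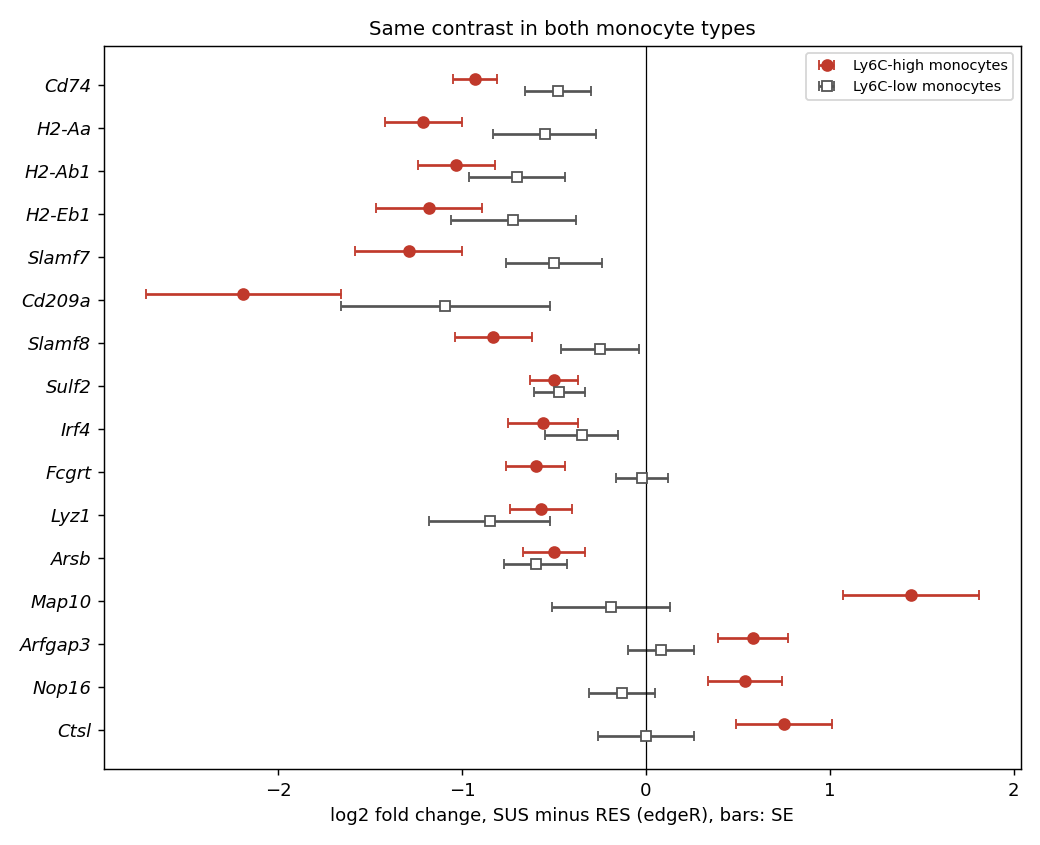
Log2 fold change (SUS minus RES, x axis) with its SE for 16 named genes in Ly6C-high (filled circles) and Ly6C-low monocytes (open squares). The class II genes, Slamf7, Cd209a, Slamf8, Sulf2, Irf4, Lyz1 and Arsb lie left of 0 in both cell types. The SE bars of Fcgrt, Map10, Arfgap3, Nop16 and Ctsl span 0 in Ly6C-low monocytes.

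Among genes of the dendritic-like monocyte state, Cd209a had the lowest p. Cd209a, the mouse C-type lectin related to human DC-SIGN, was at 0.606, 7.84, 4.94, 5.3, 2.79 and 10.1 CPM in SUS. In RES it was at 39.1, 36.5, 8.0, 39.9, 16.5 and 3.94 CPM, so that 2 RES libraries lay within the SUS range. The CON libraries were at 37.6 to 68.9 CPM. Between SUS and RES the log2 fold change was -2.19 ± 0.53 (SE), with an edgeR adjusted p of 0.71. Irf4, a transcription factor of dendritic cells and monocyte-derived dendritic cells, had a log2 fold change of -0.56 ± 0.19 (SE, edgeR adjusted p = 0.999). These were the 2 of 17 members tested with an unadjusted edgeR p under 0.05; 13 of 17 were below 0 and the median was -0.16, where 1.79% of all genes were lower at that p and 48.1% were below 0.

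Slamf7 and Slamf8 encode receptors of the signalling lymphocytic activation molecule family on leukocytes. Slamf7 was at 4.99 to 13.9 CPM in SUS, 9.69 to 32.7 CPM in RES and 22.3 to 49.0 CPM in CON. The 2 lowest RES libraries, replicates 5 and 6, lay within the SUS range. Its log2 fold change was -1.29 ± 0.29 (SE), with an adjusted p of 0.563 in edgeR and 0.0298 in DESeq2. Slamf8 was at 14.6 to 29.4 CPM in SUS and 31.3 to 53.9 CPM in RES, with no overlap and a log2 fold change of -0.83 ± 0.21 (SE, edgeR adjusted p = 0.71). Sulf2, an extracellular enzyme that trims sulfate from heparan sulfate chains, was at 167 to 260 CPM in SUS and 274 to 401 CPM in RES. Its log2 fold change was -0.5 ± 0.13 (SE) in Ly6C-high and -0.47 ± 0.14 (SE) in Ly6C-low monocytes.

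The remaining protein-coding genes whose SUS libraries lay below all RES libraries at a mean of at least 50 counts had higher p-values. They were the lysosomal sulfatase gene Arsb (13.9 to 16.0 CPM in SUS, 16.5 to 24.8 CPM in RES), the histone demethylase gene Kdm2a (131 to 205 against 210 to 233 CPM), the mitochondrial protein gene Nipsnap2 (16.9 to 21.6 against 22.3 to 39.7 CPM), Smim5 (5.92 to 12.1 against 12.2 to 19.9 CPM), Mss51 and the kinase gene Nek3. Their log2 fold changes ran from -1.57 for Nek3 to -0.29 for Kdm2a, and each edgeR adjusted p was 0.973 or above.

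Most genes of the type I interferon list had a log2 fold change below 0. These genes are switched on through the interferon receptor and factors that include Stat2 and Irf9, and many of their products act on viral RNA. Of 40 members tested, 32 had a log2 fold change below 0, 9 had an unadjusted edgeR p under 0.05, all lower in SUS, and none passed after adjustment over all genes. The median was -0.18, where 1.79% of all genes were lower at that p and 48.1% were below 0. Ifit2, which encodes an RNA-binding inhibitor of translation, was at 31.7, 38.2, 20.5, 43.2, 49.3 and 41.1 CPM in SUS and 57.5, 158, 76.4, 79.3, 19.1 and 40.4 CPM in RES. Of the RES libraries, 4 were above all SUS libraries and replicates 5 and 6 were not. The log2 fold change was -0.94 ± 0.31 (SE, edgeR adjusted p = 0.999), and the CON libraries were at 72.1 to 112 CPM.

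Ifit3 and its near copy Ifit3b, which may share reads, had log2 fold changes of -1.07 ± 0.39 and -1.19 ± 0.45 (SE). Mx2, of an interferon-induced GTPase family but annotated as a polymorphic pseudogene, had one of -0.69 ± 0.27 (SE). In RES it too was lowest in replicates 5 and 6, at 14.9 and 12.5 CPM. Of the factors of the pathway, Stat2 had a log2 fold change of -0.21 and Irf9 one of -0.02. Without SUS replicate 5 the counts were larger, with 39 of 40 members below 0, 16 with an unadjusted edgeR p under 0.05, all lower, and a median of -0.38, against 1.92% of all genes lower at that p. Of the interferon gamma list, 15 of 25 members were below 0 and 1, the guanylate-binding protein gene Gbp9 (-0.5 ± 0.22, SE), had an unadjusted edgeR p under 0.05. Over all genes, 48.1% were below 0 and 1.79% lower at that p. Leaving out SUS replicate 5, 20 of 26 were below 0 and 4 (15.4%) were lower at that p, against 1.92% of all genes.

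The upstream 250 bases of Ifit3 (RefSeq, GRCm38.p6, chr19:34583279-34583528, plus strand) are printed as an example of this list. Capitals mark the core of the interferon-stimulated response element, GAAA and again GAAA with 2 free bases between them, searched on both strands and here present as 2 matches on the other strand, in reverse complement.
Ifit3: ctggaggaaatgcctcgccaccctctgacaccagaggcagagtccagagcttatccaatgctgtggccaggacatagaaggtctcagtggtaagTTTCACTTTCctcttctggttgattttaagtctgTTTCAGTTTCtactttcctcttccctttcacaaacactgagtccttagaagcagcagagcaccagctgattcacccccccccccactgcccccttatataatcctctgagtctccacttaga
This word was found upstream of 14 of the 29 interferon list genes in the table and of 936 of all 27025 genes, 3.46%. The list was chosen for its known response to interferon, so its share of the word is not a result of these libraries.

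**Figure D4:**
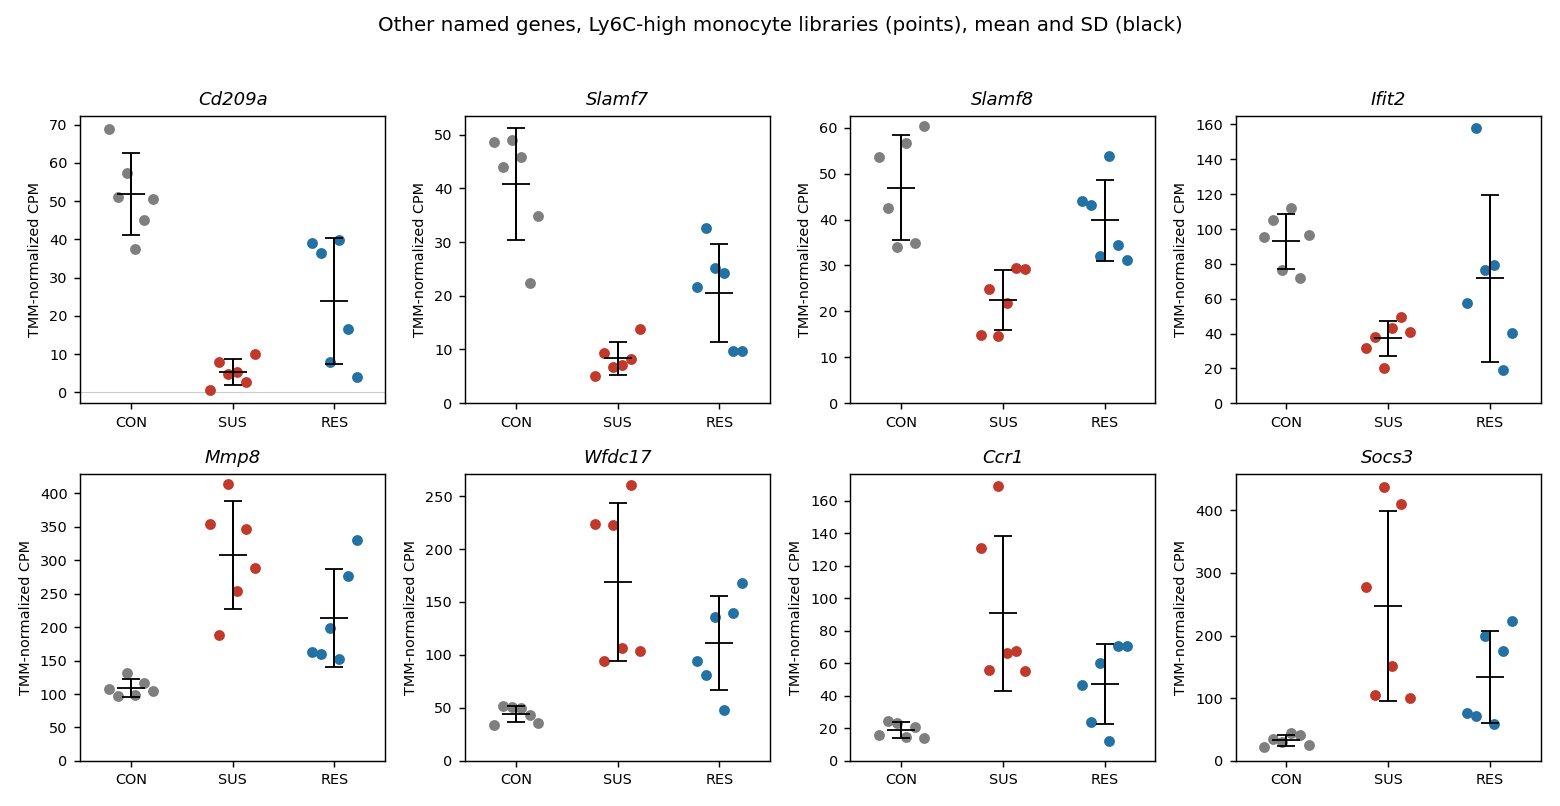
CPM (y axis) of 8 further genes in each CON, SUS and RES Ly6C-high monocyte library, 6 per group, with the mean and SD in black. Cd209a, Slamf7, Slamf8 and Ifit2 have their lowest mean in SUS, and Mmp8, Wfdc17, Ccr1 and Socs3 have their highest mean there, and of the 8 genes only Slamf8 has no overlap between SUS and RES libraries.

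On the higher side no gene passed the edgeR threshold. Abca13, a large transporter of the ATP-binding cassette family, was at 18.3, 6.01, 11.9, 21.6, 13.2 and 5.57 CPM in SUS and 5.52, 1.86, 4.16, 4.09, 2.0 and 3.27 CPM in RES. The groups did not overlap, although the CON libraries, at 1.59 to 11.2 CPM, reached into both. Its log2 fold change was 1.87 ± 0.5 (SE), with an edgeR adjusted p of 0.799, and DESeq2 called it with only the SUS and RES libraries in the fit. Map10, which encodes a microtubule-associated protein, was at 7.59 to 12.3 CPM in SUS and 0.668 to 4.9 CPM in RES, a log2 fold change of 1.44 ± 0.37 (SE, edgeR adjusted p = 0.713). The other protein-coding genes above all RES libraries at a mean of at least 50 counts were the Golgi regulator gene Arfgap3 (20.7 to 27.1 against 10.5 to 20.5 CPM), the zinc finger gene Zfp637 (5.73 to 9.87 against 2.42 to 4.61 CPM), the nucleolar protein gene Nop16 (12.8 to 17.3 against 9.16 to 11.8 CPM), the adhesion molecule gene Clmp (2.28 to 5.09 against 0.392 to 1.97 CPM) and Gnb5 (1.66 to 3.77 against 0 to 1.54 CPM). Each had an edgeR adjusted p of 0.999.

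Of the 8 genes that DESeq2 called higher in SUS, the 4 with the lowest p rested on few reads. Chchd10, a mitochondrial protein gene, had 5 to 132 counts in SUS and 0 in every RES library. Gm48372 had 0 to 82 counts in SUS and 0 in every RES library. A130050O07Rik and Gm37436 had at most 94 and 157 counts in SUS and at most 1 and 4 in RES. In CON, Gm37436 was at 0 to 3.47 CPM and Gm48372 at 0 to 2.78 CPM, and each was also at 0 in 1 SUS library. With edgeR their adjusted p was 0.71 or above, and no fold is given against a group at or near 0.

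Most neutrophil-like monocyte genes had a log2 fold change above 0. Of 20 members tested, 18 had a log2 fold change above 0, 4 had an unadjusted edgeR p under 0.05, all higher, and the median was 0.5, where 1.86% of all genes were higher at that p and 51.9% were above 0. Mmp8, the matrix metalloproteinase that cleaves fibrillar collagen, was at 355, 189, 414, 254, 347 and 288 CPM in SUS and 163, 160, 199, 153, 276 and 331 CPM in RES. RES replicates 3, 5 and 6 lay within the SUS range. SUS averaged 308 ± 80.8 CPM and RES 214 ± 73.7 CPM (SD, n = 6 each), and the CON libraries were at 97.2 to 132 CPM. Its log2 fold change was 0.53 ± 0.19 (SE), with an edgeR adjusted p of 0.999, and ranged from 0.42 to 0.7 over the alternatives.

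Wfdc17 and Wfdc21, small secreted proteins with a whey acidic protein domain, had log2 fold changes of 0.6 ± 0.27 and 2.49 ± 0.94 (SE). Wfdc21 was at 18.6, 2.41, 20.3, 7.86, 35.0 and 1.51 CPM in SUS and at most 8.11 CPM in RES, so the SUS libraries were themselves divided. Saa3, an acute-phase serum amyloid A gene, followed the same division, with 30.0, 41.1 and 32.5 CPM in SUS replicates 1, 3 and 5 and at most 2.23 CPM in the other SUS libraries. Without SUS replicate 5, 16 of the 20 genes were above 0, 3 had an unadjusted edgeR p under 0.05 and the median was 0.35, against 2.39% of all genes higher at that p. The summed level of 12 neutrophil markers was 660 to 1070 CPM in SUS and 742 to 1050 CPM in RES, nearly all of it Csf3r and Cd177. Stfa2 and BC100530 were at 0 in all 12 libraries, and the other 10 markers had counts. In the neutrophil-like list, the granule genes Ngp and Ltf averaged 198 and 133 CPM in SUS and 151 and 87.8 CPM in RES. Their log2 fold changes were 0.39 ± 1.2 and 0.6 ± 1.18 (SE). The part of neutrophil RNA in the neutrophil-like result was not tested.

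Socs3, the feedback inhibitor of interleukin-6 type signalling, was at 278, 105, 438, 152, 410 and 99.9 CPM in SUS and 76.5, 71.6, 199, 59.6, 176 and 224 CPM in RES. The groups overlapped, and the same 3 SUS libraries that were high in Saa3 were highest in Socs3. The log2 fold change was 0.88 ± 0.39 (SE, edgeR adjusted p = 0.999), and every SUS and RES library was above the CON libraries (22.2 to 44.3 CPM). Lrg1, a secreted acute-phase glycoprotein gene, was at 105, 109 and 158 CPM in those 3 SUS libraries and at most 13.0 CPM in the other 3, and the kinase gene Pim1 had a log2 fold change of 0.52 ± 0.22 (SE). Of the JAK-STAT list, 3 of 22 members had an unadjusted edgeR p under 0.05, all higher, against 1.86% of all genes, with a median of 0.11; without SUS replicate 5 the count was 0 and the median -0.03. F11r, a junctional adhesion molecule used in transmigration, was divided in the same way, at 96.1, 93.0 and 115 CPM against 5.69 to 21.7 CPM, and its log2 fold change was 1.75 ± 0.98 (SE).

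Chemokine receptors that guide monocytes into tissue had a median log2 fold change of 0.29 over 16 members. At an unadjusted edgeR p under 0.05, Ccr1 was higher (0.94 ± 0.34, SE) and Cx3cr1, the receptor that marks patrolling monocytes, was lower (-0.47 ± 0.18, SE). Outside that list, the ligand gene Ccl2, which recruits Ccr2-bearing cells, had a log2 fold change of 1.11 ± 0.41 (SE). Ccr1 was at 55.1 to 169 CPM in SUS and 12.5 to 70.8 CPM in RES, and 4 of the 6 SUS libraries lay within the RES range. The S100 and annexin list had 16 of 17 members above 0 and a median of 0.33. Its members S100a11 (0.56 ± 0.23, SE) and Anxa1 (0.33 ± 0.15, SE) were higher at an unadjusted edgeR p under 0.05. Over all genes, 51.9% were above 0, and 1.86% were higher and 1.79% lower at that p. Without SUS replicate 5, 13 of 18 S100 and annexin members were above 0, their median was 0.08 and none had such a p. In that fit, 9014 of all 17456 genes were above 0 and 2.39% were higher at that p. The chemokine receptor median in that fit was 0.38.

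Several housekeeping lists had medians above 0 with all libraries and nearer to 0 without SUS replicate 5. Over all genes, 51.9% were above 0 with all libraries and 9014 of 17456 were above 0 without SUS replicate 5. Genes for nuclear-encoded subunits of oxidative phosphorylation were above 0 in 68 of 76 members, median 0.23, with Ndufa7 (0.63 ± 0.23), Uqcrq (0.74 ± 0.31), Cox6a1 (0.56 ± 0.24) and Atp5j (0.33 ± 0.14, SE) higher at an unadjusted edgeR p under 0.05, as were 1.86% of all genes. Without that library 49 of 76 were above 0, none had such a p and the median was 0.08. Cytosolic ribosomal protein genes were above 0 in 78 of 81 members and in 50 of 81 without it, with medians of 0.14 and 0.02. Replication-dependent histone genes had a median of 0.5 and 6 of 52 members higher at an unadjusted edgeR p under 0.05, against 1.86% of all genes, among them Hist1h1c, which ran from 92.1 to 794 CPM in SUS and from 183 to 256 CPM in RES. Without SUS replicate 5 their median was 0.18 and none had such a p. Glycolysis genes went from 18 of 22 above 0 to 12 of 22, with Ldha at 0.47 ± 0.22 (SE) with all libraries and no member at an unadjusted edgeR p under 0.05 without it. The 13 mitochondrially encoded protein genes were all above 0 both times, with medians of 0.17 and 0.24 and no member at an unadjusted edgeR p under 0.05.

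**Figure D5:**
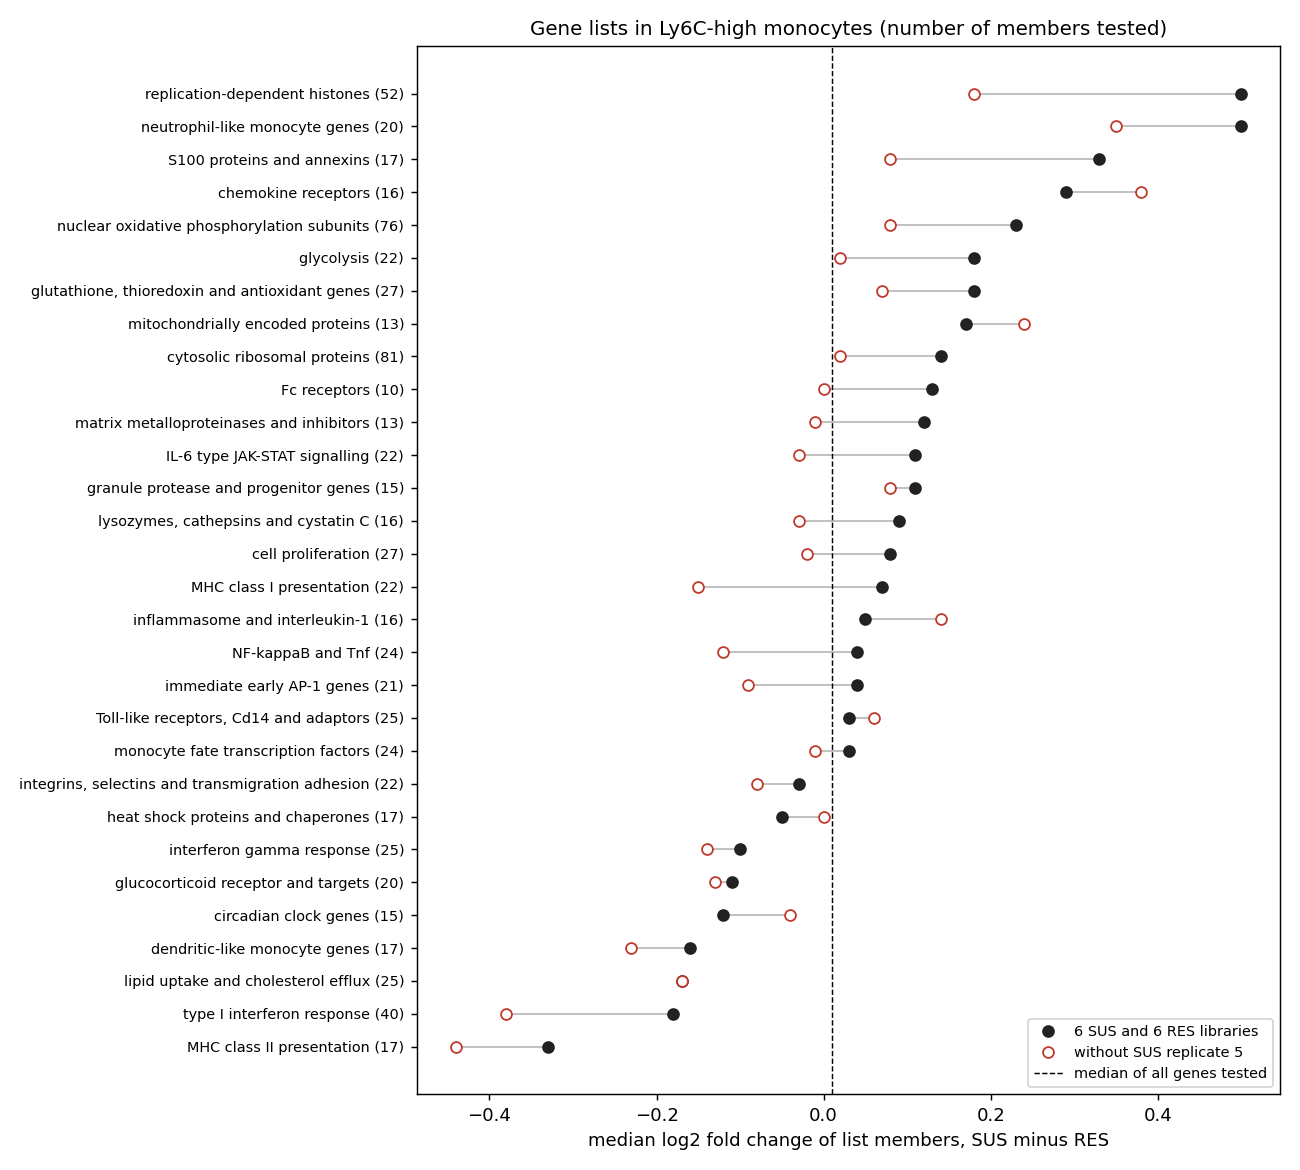
Median log2 fold change (SUS minus RES, x axis) of the members of 30 pathway lists, with the number of members tested, for all libraries (filled) and without SUS replicate 5 (open); the dashed line is the median of all genes, 0.01. The MHC class II and type I interferon lists lie farthest left both times, at -0.33 and -0.18 with all libraries. The histone, S100 and oxidative phosphorylation lists move toward 0 without SUS replicate 5.

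Other regulators and effectors differed gene by gene. With all libraries, 1.86% of all genes were higher and 1.79% lower at an unadjusted edgeR p under 0.05. Of the glucocorticoid receptor list, 2 of 20 members were higher and 1 lower at that p. Fkbp5, a co-chaperone that glucocorticoids induce, was at 25.6 to 43.8 CPM in SUS and 15.4 to 30.0 CPM in RES (0.51 ± 0.22, SE), Anxa1 is given above, and Txnip, the thioredoxin-binding protein, had -0.45 ± 0.15 (SE). Among Fc receptors, Fcgrt, which recycles immunoglobulin G, was at 31.9 to 51.8 CPM in SUS and 49.5 to 72.7 CPM in RES (-0.6 ± 0.16, SE). Among lysosomal and secreted hydrolases, Lyz1 had -0.57 ± 0.17 and Ctsl 0.75 ± 0.26 (SE). The list of lysozymes, cathepsins and cystatin C had 12 of 16 members above 0, against 51.9% of all genes. Without SUS replicate 5 it had 7 of 16, against 9014 of 17456 genes. Of the Toll-like receptor list, Tlr1 (0.59 ± 0.25) and Tlr11 (-1.63 ± 0.68, SE) had an unadjusted edgeR p under 0.05, in opposite directions, and without SUS replicate 5 the list had 1 member higher and 2 lower at that p. Cd40 (-0.44 ± 0.19), Atf3 (-0.37 ± 0.14), the lymphoid and monocyte regulator gene Bach2 (-1.12 ± 0.46), the clock gene Tef (-0.74 ± 0.33), the heat shock gene Hspa1b (-1.12 ± 0.53) and Cd99l2 (-0.54 ± 0.21, SE), whose product takes part in transmigration, were each lower at that p. Mgst1, a microsomal glutathione transferase gene (0.24 ± 0.11), and Pycard, the inflammasome adaptor gene (0.34 ± 0.16, SE), were higher. None of these passed after adjustment. Without SUS replicate 5, 3 of 24 NF-kappaB and Tnf genes, the list of Cd40, were lower at that p, 1 glucocorticoid list member was higher, none of 15 clock genes was lower and 1 of 22 adhesion genes was higher. In the fit without that library, 2.39% of all genes were higher and 1.92% lower at that p.

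In the lists for granule proteases, proliferation, lipid uptake and efflux, mitochondrially encoded proteins and ribosomal proteins, no member had an unadjusted edgeR p under 0.05. Lipid uptake and cholesterol efflux genes were below 0 in 19 of 25 members, against 48.1% of all genes, with a median of -0.17. The lowest p belonged to the lysosomal cholesterol transporter gene Npc1 (-0.24 ± 0.12, SE) and the sterol synthesis gene Sqle (-0.5 ± 0.27, SE). In the fit without SUS replicate 5, 23 of 25 were below 0 and 2 (8%) were lower at an unadjusted edgeR p under 0.05. Over all genes in that fit, 8442 of 17456 were below 0 and 1.92% lower at that p. Of the matrix metalloproteinase list, Mmp8 was the 1 of 13 members at that p, against 1.86% of all genes higher, and Mmp19 had 0.74 ± 0.37 (SE). When SUS replicate 5 was left out, 2 of 13 members (15.4%) were higher at that p, against 2.39% of all genes. Of the MHC class I list, 1 of 22 members, H2-Q6 (-1.49 ± 0.59, SE), was lower at that p, against 1.79% of all genes. H2-Q6 belongs to a multigene family whose reads can be split among copies. The class I list had 15 of 22 members above 0, against 51.9% of all genes, and a median of 0.07. Without SUS replicate 5, 4 of 22 were above 0, against 9014 of 17456 genes. The median in that fit was -0.15, with 2 of 22 members lower at that p, against 1.92% of all genes.

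Marker genes of the sorted cells and of other blood cells were compared as the mean log2(CPM + 0.5) of each list. None of the 12 lists differed between SUS and RES at an adjusted p of 0.05 by an exact two-sided permutation test over the 6 and 6 libraries, the smallest unadjusted p was 0.149 and the smallest that this design allows is 0.00216. The summed red cell level was 1060 to 8830 CPM in SUS and 1050 to 4140 CPM in RES, with Car1 at 0 in all 12 libraries. The summed T cell level was 1.5 to 10.2 CPM and 2.53 to 6.31 CPM, that of NK cells 0.177 to 16.1 CPM and 0.799 to 38.4 CPM, and that of platelets 43.1 to 122 CPM and 41.3 to 78.7 CPM, SUS and RES in turn. All 9 NK cell markers tested were below 0, as were 48.1% of all genes, with a median of -1.42. All 10 red cell markers tested were above 0, as were 51.9% of all genes, with a median of 0.47. Without SUS replicate 5, 8 of 10 NK cell markers were below 0, against 8442 of 17456 genes. In that fit 2 of 10 red cell markers were above 0, against 9014 of 17456 genes. The brain cell list, tested because the labels name brain, was at 237 to 455 CPM in SUS and 299 to 426 CPM in RES. Most of it was Mbp, which blood leukocytes also express. Sall1, which marks microglia, was at 0 in all 12 libraries, and the other 11 listed genes had counts. P2ry12, a platelet and microglia receptor gene, was at 1.93 to 16.5 CPM in SUS and 0.146 to 6.34 CPM in RES. Of 5 members tested, 4 were above 0 and 1 was higher at an unadjusted edgeR p under 0.05, against 51.9% and 1.86% of all genes. The source of this RNA was not tested.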

How the data were processed

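Total RNA of sorted cells was sequenced from libraries made with a SMARTer Stranded Total RNA-Seq Pico kit, without molecular identifiers. Per the labels and the methods, the authors aligned reads to mm10 with HISAT2 and deposited raw read counts per Ensembl gene from HTSeq, with no normalization. The strand setting and the treatment of duplicates and multimapping reads are not given in the sources used here. The deposited table also covers B cells, T cells and Ly6C-low monocytes.

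Counts of the 18 Ly6C-high libraries were normalized by TMM, filtered with filterByExpr and fitted with edgeR 4.0.16 (glmQLFit, robust; glmQLFTest; R 4.3.3), contrast SUS minus RES, with Benjamini-Hochberg adjustment. Each SE was taken from the F statistic of its gene, as the size of the log2 change over the root of F. DESeq2 1.42.0 was an alternative. Scripts were tested on simulated data. Named genes were those with an adjusted p under 0.05, non-overlapping protein-coding genes with a mean of at least 50 counts, list members with unadjusted p under 0.05 (at most 4 per list, otherwise the 2 lowest p), Ly6c2, Ccr2, Mmp8 and Socs3, abundant other-cell markers, and the DESeq2 calls. Ciita, Rfx5, H2-DMa, H2-DMb1, Ctss, Cd79a, Peg13, Stat2 and Irf9 were added for their role after their values were seen. The members and lists were chosen with earlier results of these data known. Pathway lists are described by counts and medians, with no test of a list against other genes, and members of a list are not independent. The mean levels of 12 marker lists were compared over libraries by an exact permutation test. Not every gene chosen this way is reported here. Gene positions are from GENCODE M21, promoters from RefSeq. No 2 libraries held identical counts.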

Additional observations from a re-analysis of the deposited data

Results flagged for a closer look

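For each of 116 named genes and the levels of 12 marker lists, the 6 SUS and the 6 RES libraries were examined for 1 library far from the other 5 by Dixon's test at the 95% level. Of 256 such groups 12 had one, and chance gives about 5% of groups. All 12 were single genes, and values are CPM in Ly6C-high monocytes. SUS replicate 5, which stood apart on the first scaling axis, was the far library for 3 genes: Hba-a1 at 4080 against 454 to 972, the ribosomal protein gene Rpl37a at 261 against 124 to 154, and H2-DMa at 178 against 72.3 to 98.4. RES replicate 4 was far from the other RES libraries for 4 genes, with Map10 at 0.668 against 2.56 to 4.9, Pycard at 28.1 against 40.1 to 43.8, the platelet and microglia receptor gene P2ry12 at 0.146 against 3.17 to 6.34, and Ctss at 1910 against 2460 to 2780. The platelet integrin gene Itga2b was at 1.71 in RES replicate 1 against 4.55 to 6.12. Mss51 was at 0.263 in SUS replicate 4 against 1.02 to 1.45. The lymphocyte surface gene Cd5 was at 4.1 in SUS replicate 2 against 0.457 to 0.985. A130050O07Rik was at 0.0262 in RES replicate 2 and Gm37436 at 0.107 in RES replicate 5, each with the other 5 RES libraries at 0. Cd74, H2-Aa, H2-Ab1 and H2-Eb1 had no such library in either group.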

How the results depend on the processing

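Cd74 kept its direction under all 23 alternatives and an adjusted p under 0.05 in 22. The count at an adjusted p under 0.05, 1 in edgeR, was 13 with DESeq2, 8 with DESeq2 on SUS and RES only, 2 with no low-count filter and 0 with glmTreat, and 1 to 2 with 1 library left out, H2-Aa being added without SUS replicate 2 or RES replicate 6. Past both thresholds the count, 0, was 11, 6 and 1 in the first 3 of these and 0 to 1 with 1 library left out. Genes higher at an unadjusted p under 0.05, 316, were 2280 with no filter, 183 with at least 10 counts in every library, 175 with SUS and RES only in edgeR, 113 with glmTreat and 287 to 498 with 1 library left out, highest without RES replicate 6. Genes lower, 304, were 1230, 193 with SUS and RES only, 35 with glmTreat, 149 with the B cell covariate and 218 to 485, highest without SUS replicate 6. The share of higher genes, 51%, was 64.2% with that covariate, 65% with no filter and 76.4% with glmTreat, and lower at 41.7% with at least 10 counts, 44.5% with the red cell covariate and 47.6% with SUS and RES only in edgeR. Of the 30 list medians, 21 were above 0, and 13 to 22 with 1 library left out, fewest without SUS replicate 5. The interaction count, 0, was 21 with DESeq2 and 0 to 1 with 1 library left out. The causes of these differences were not tested.

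Log2 fold changes near 0 changed sign. With the red cell covariate Hba-a1 (0.46) became -0.17, Hbb-bs (0.34) -0.11, H2-DMa (0.01) -0.14 and Ctss (0.00) -0.06. With the B cell covariate Itgb3 (-0.21) became 0.06 and Ctss -0.05. Ctss was -0.01 with DESeq2 on SUS and RES only or at least 10 counts, and 0 with edgeR on SUS and RES only or thinned libraries. With 1 library left out, Psmb8 (0.30) ran from -0.02 to 0.40, Hba-a1 from -0.42 to 0.79, Hbb-bs from -0.27 to 0.75, Cd5 (0.40) from -0.49 to 1.47, Csf3r (-0.05) from -0.14 to 0.02, Clec10a (-0.03) from -0.23 to 0.12, H2-DMa from -0.21 to 0.12 and Ctss from -0.07 to 0.06. Differences in list level ran from -0.15 to 0.02 for Ly6C-low genes, -0.11 to 0.46 for red cells, -0.11 to 0.02 for T cells and -0.01 to 0.06 for basophils and mast cells, the last being 0 at a pseudocount of 0.1 CPM.

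No paired analysis was possible because replicate numbers follow accession order and the labels name no mouse. Libraries held 19769835 to 67038231 counts without molecular identifiers, and genes with few counts, such as Chchd10, limit what the fits can show.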
